A study of Homo sapiens with 6 samples.

Results

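The genes described here are 40 genes of aminoacyl-tRNA synthesis, amino acid metabolism and the ATF4 stress response, taken by gene symbol from a table of 58735 genes. They comprise 18 cytosolic aminoacyl-tRNA synthetases, named by their older symbols as in the table, 12 enzymes of amino acid, serine and one-carbon metabolism, and 10 stress factors. All 40 symbols were found. Expression was measured by RNA sequencing in 6 libraries of SK-MES-1, a human cell line from a lung squamous cell carcinoma. The labels give 2 libraries each to si1 and si2, the groups with transient knockdown of KRT6A, a keratin of stratified epithelia, and 2 to the control group NC. All groups share 1 cell line. The labels do not spell out these group names, give no sequence or dose of the knockdown reagents, and do not say whether the libraries of a group came from separate cultures, so the spread behind each p-value may be technical.

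An aminoacyl-tRNA synthetase joins an amino acid to its tRNA, the step that makes the amino acid available for protein synthesis. When amino acids are short or the endoplasmic reticulum is stressed, kinases phosphorylate the initiation factor eIF2, general translation slows, and translation of the transcription factor ATF4 increases. ATF4 pairs with proteins of the C/EBP family and drives genes of amino acid synthesis, amino acid uptake and tRNA charging, together with feedback and death regulators, a programme known as the integrated stress response. In many tumour lines it keeps the supply of serine and one-carbon units high.

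ATF4 and its C/EBP partners are known to bind composite elements that contain TGATGNAA. These letters were searched on both strands in promoter windows from RefSeq (GRCh38.p14), which run from 250 bases before to 50 bases after a gene's start. Windows were matched by current symbol for 31 of the 40 genes. The others are DARS, LARS, VARS, YARS, PSPH, SHMT2, ALDH1L2, PYCR1 and NUPR1. A match was present in 10 of these 31 genes, or 32.3%, against 2.61% of the 9150 genes that were both tested for expression and had a window, and 3.62% of all 35116 windows. By role the share was 7 of 14 synthetases, 2 of 8 enzymes and 1 of 9 stress factors. The set was put together around the ATF4 response, so a share above that of all genes may come with that choice. The stretches around the 10 matches are printed below on the strand of the gene, with the match in capitals. A match on the other strand reads as its reverse complement. The stretches show which genes carry these letters within a window.
AARS (chr16:70289676-70289703, minus strand): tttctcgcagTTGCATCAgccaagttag
CARS (chr11:3057408-3057435, minus strand): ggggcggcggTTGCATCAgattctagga
GARS (chr7:30594835-30594862, plus strand): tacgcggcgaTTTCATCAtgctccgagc
IARS (chr9:92293693-92293720, minus strand): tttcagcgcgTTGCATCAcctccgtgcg
MARS (chr12:57488054-57488081, plus strand): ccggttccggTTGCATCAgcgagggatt
NARS (chr18:57621805-57621832, minus strand): ctacgctctcTGATGCAAcgccggaatc
TARS (chr5:33440957-33440984, plus strand): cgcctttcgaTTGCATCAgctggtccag
ASNS (chr7:97872459-97872486, minus strand): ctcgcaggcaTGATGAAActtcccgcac
MTHFD1L (chr6:150866347-150866374, plus strand): ccgccggctcTGATGCAAtcgcgccggg
CHAC1 (chr15:40953252-40953279, plus strand): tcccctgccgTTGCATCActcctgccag

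In 8 of these genes, all but GARS and ASNS, the match read TGATGCAA on one of the strands. That form was present in 0.699% of the tested genes with a window. The matches of CARS, MARS and TARS lay within 4 bases of the annotated start, while those of AARS and CHAC1 began 187 and 209 bases before it. A match describes letters in a window and does not show binding.

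Expression is given as FPKM, fragments scaled by gene length and sequencing depth, so levels can be compared between genes. Reads recovered from the FPKM came to 16054729 and 16653722 in si1, 15700286 and 14948607 in si2, and 16607606 and 17401392 in NC. KRT6A had 0 reads in every library, the NC libraries included. A lowering of KRT6A RNA therefore cannot be seen here, and the gene targeted does not check the labels. The name knockdown group follows the labels, and whether the changes below come from lower KRT6A was not tested. Of 6 epithelial markers 5 had a mean of at least 1 FPKM. Of 6 squamous markers only TP63 did, while KRT5, KRT14, KRT6A and DSG3 had at most 1 read in any library. None of 5 immune and 4 endothelial markers reached it. Of 5 fibroblast markers 2 did, and their summed level was 25.0 and 20.0 FPKM in si1, 23.4 and 22.8 in si2, and 17.1 and 17.5 in NC, with COL1A2 at 0 in all. The summed epithelial markers were at 376 and 370.4 FPKM in si1, 264 and 277 in si2, and 355 and 379 in NC. The summed squamous markers were at 6.002 and 5.578 FPKM in si1, 13.9 and 11.7 in si2, and 6.02 and 6.69 in NC. The part of these markers in the results was not tested.

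Most of the genes were abundant in NC cells. The synthetases ran from 7.82 FPKM for HARS to 170.2 for GARS (mean of 2 libraries), and ATF4 stood at 161.5. ASNS and ALDH1L2 were the exceptions among the enzymes, with means of 0.531 and 0.0947 FPKM over the 6 libraries. They fell under the minimum of 1 FPKM set for testing, so 38 of the 40 genes were tested.

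**Figure D1:**
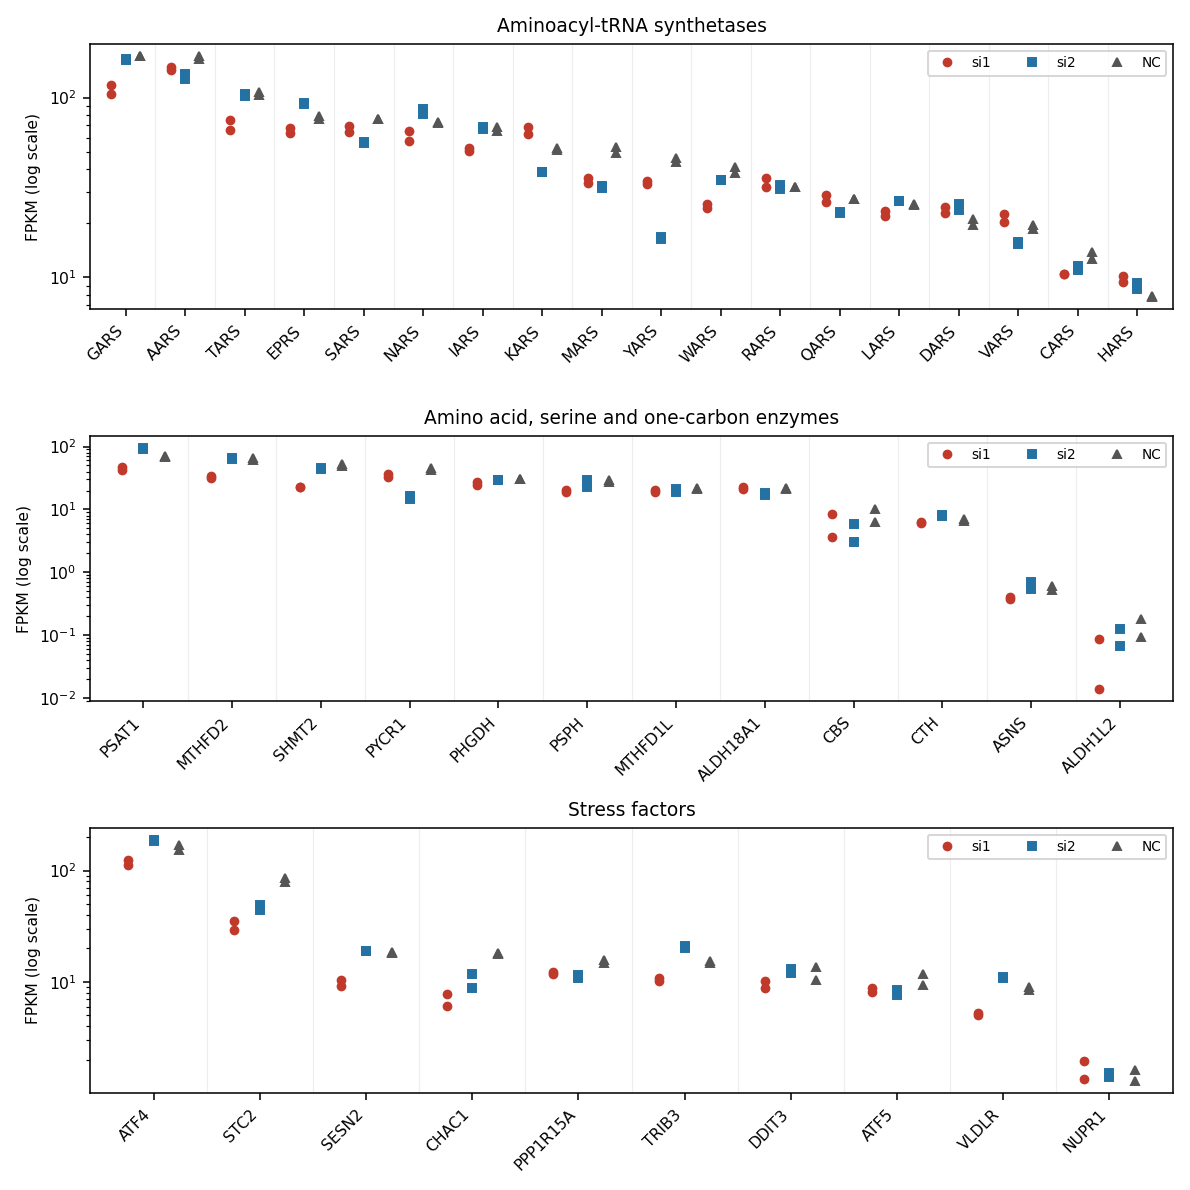
FPKM of each gene on a log scale, by role, with 1 point per library: si1 (circles), si2 (squares) and NC (triangles), genes ordered by their NC mean. In si1 the points of SHMT2, MTHFD2, SESN2 and STC2 lie well below those of NC, in si2 those of YARS and PYCR1 do, and ASNS and ALDH1L2 lie below 1 FPKM in all groups.

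With si1 set against NC, of the 38 genes tested, 22 fell and 2 rose, or 57.9% and 5.26%, where over all 12319 genes tested 12.9% fell and 9.47% rose. A gene was called changed at an adjusted p under 0.05 over all genes. The median log2 fold change was −0.31 for the 38 genes and −0.0071 for all genes. In bulk libraries, fewer cells with a high level and less RNA per cell cannot be told apart. In the comparison of si2 with NC, which used the same NC libraries, 12 fell and 5 rose, or 31.6% and 13.2%, where 15.4% of all genes fell and 13.6% rose. The median there was −0.094. The direct comparison of si2 with si1 does not use NC levels, although NC enters the estimate of the spread. In it 18 of the 38 genes were higher in si2 and 7 lower, or 47.4% and 18.4%, where 19.9% and 18.6% of all genes were. The number that fell in si1 was 12 without NC replicate 1, where 5.52% of all genes fell, and 15 without NC replicate 2, where 6.02% did. The number that fell in si2 was 6 without NC replicate 2 (6.67% of all genes) and 7 without si2 replicate 1 (7.91%). When either NC or either si2 library was left out, 2 rose in si2, with 5.42% to 6.83% of all genes. The number lower in si2 than in si1 was 4 without si2 replicate 1, with 12% of all genes. Both of the genes that rose in si1 lost their call without either NC library, KARS (adjusted p = 0.0959 without replicate 1 and 0.0651 without replicate 2) and HARS (0.162 and 0.131).

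**Figure D2:**
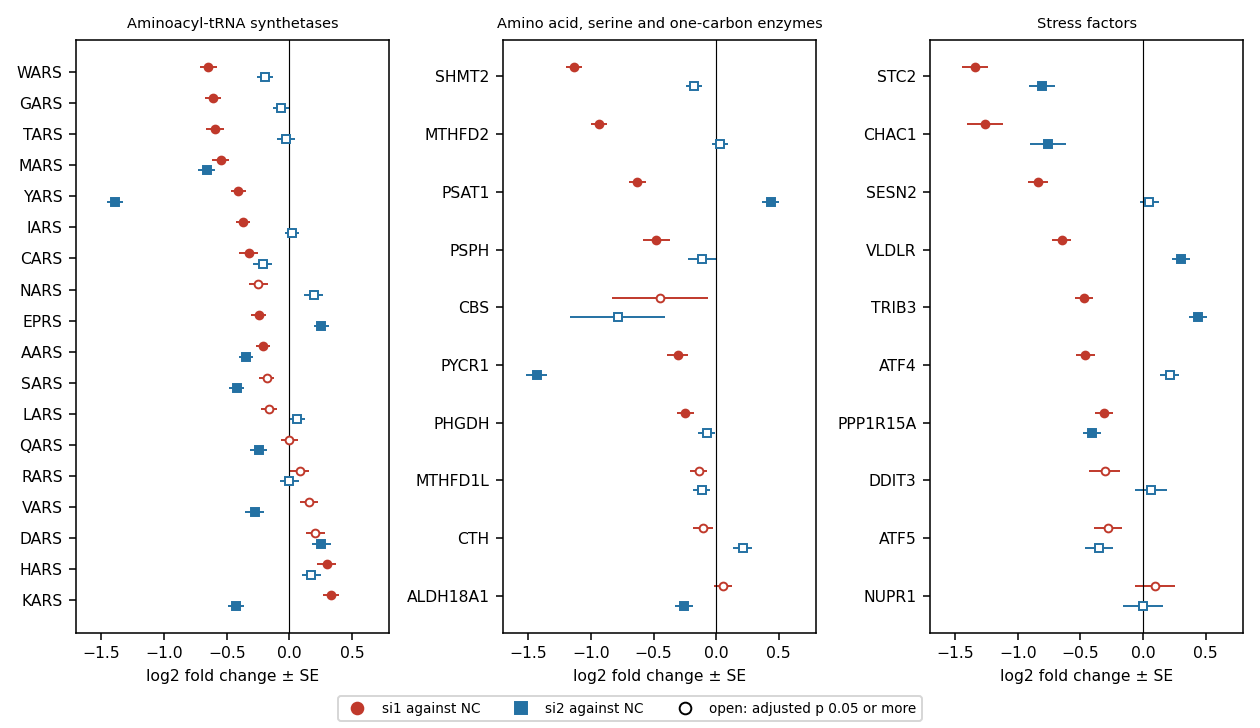
Log2 fold change against NC on the log2(FPKM + 1) scale with its SE, for si1 (circles) and si2 (squares), by role. Filled symbols passed an adjusted p of 0.05 and open ones did not. In si1, SHMT2, STC2 and CHAC1 lie below −1. In si2, YARS and PYCR1 do.

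Among the stress factors, ATF4 (ENSG00000128272, chr22:39519695-39522685, hg38) had 111 and 123 FPKM in si1, 189 and 185 in si2, against 171 and 152 in NC. The si1 libraries were below and the si2 libraries above both NC libraries. ATF4 fell in si1 (log2 fold change −0.46, SE 0.0764, adjusted p = 0.00665), though it did not pass without NC replicate 1 (−0.38, adjusted p = 0.0553) or with no filter on low values (adjusted p = 0.0524). In si2 against NC the value was 0.21 (SE 0.0764, adjusted p = 0.0783). That value passed when only the 2 groups compared were fitted (adjusted p = 0.0467) and when either si1 library was left out. With no filter on low values it did not pass (adjusted p = 0.245). Set directly against si1, ATF4 was higher in si2 by 0.67 (SE 0.0764, adjusted p = 0.000808). The protein level of ATF4, which is set largely by translation, was not measured.

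TRIB3, a pseudokinase that ATF4 induces and that restrains ATF4 in turn, had 10.9 and 10.2 FPKM in si1, 21.1 and 20.3 in si2, against 14.7 and 15.4 in NC. It fell in si1 (−0.47, SE 0.0704, adjusted p = 0.00434) and rose in si2 (0.44, SE 0.0704, adjusted p = 0.00518). SESN2, a sestrin that senses leucine and restrains mTORC1, had 10.4 and 9.17 FPKM in si1, 18.9 and 18.8 in si2, against 18.4 and 18.1 in NC. SESN2 thus fell in si1 (−0.84, SE 0.0767, adjusted p = 0.000688), while the si2 libraries lay within 1 FPKM of NC (0.05, adjusted p = 0.678). VLDLR, a lipoprotein receptor, had 5.04 and 5.26 FPKM in si1, 10.7 and 11.1 in si2, against 8.92 and 8.38 in NC. VLDLR fell in si1 (−0.65, adjusted p = 0.00156) and rose in si2 (0.30, adjusted p = 0.0226), and its si2 call was lost without any one of the NC or si2 libraries (adjusted p from 0.0755 without NC replicate 1 through 0.0866 without si2 replicate 1 and 0.112 without si2 replicate 2 to 0.14 without NC replicate 2).

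STC2 and CHAC1 were low in both knockdown groups. STC2 (chr5:173314713-173329503), which encodes the secreted glycoprotein stanniocalcin 2, had 35.0 and 28.99 FPKM in si1, 44.3 and 49.3 in si2, against 78.7 and 86.2 in NC. It fell in si1 (−1.34, SE 0.103, adjusted p = 0.000369) and in si2 (−0.81, SE 0.103, adjusted p = 0.0021), and its level in si2 exceeded that in si1 by 0.54 (adjusted p = 0.00669). CHAC1 (chr15:40952962-40956519), an enzyme that degrades glutathione, had 6.12 and 7.81 FPKM in si1, 8.89 and 11.7 in si2, against 18.1 and 17.8 in NC. CHAC1 fell in si1 (−1.26, SE 0.142, adjusted p = 0.00149) and in si2 (−0.76, SE 0.142, adjusted p = 0.00916), and was 0.50 higher in si2 than in si1 (adjusted p = 0.03). Its call in si2 was lost without NC replicate 1 (adjusted p = 0.0541) or NC replicate 2 (0.0536), and the CHAC1 call in si2 against si1 without NC replicate 1, NC replicate 2, si1 replicate 1 or si2 replicate 2 (0.0538, 0.0538, 0.139 and 0.141). PPP1R15A, the phosphatase subunit GADD34 that dephosphorylates eIF2, averaged 12.1 ± 0.322 FPKM in si1, 11.2 ± 0.393 in si2 and 15.2 ± 0.613 in NC (SD, n = 2). PPP1R15A fell in si1 (−0.31, adjusted p = 0.0217) and in si2 (−0.41, adjusted p = 0.00712). Its si1 call was lost without NC replicate 1, NC replicate 2 or si1 replicate 2 (adjusted p = 0.0844, 0.137 and 0.0601), and its si2 call without NC replicate 2 or si2 replicate 1 (0.0633 and 0.0541).

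The other stress factors did not pass the threshold against NC. DDIT3, the death-promoting factor CHOP, had 8.80 and 10.1 FPKM in si1, 11.96 and 13.1 in si2, against 10.5 and 13.5 in NC. The NC libraries spread wider than those of either knockdown group, and the log2 fold changes were −0.31 in si1 (SE 0.125, adjusted p = 0.129) and 0.06 in si2 (SE 0.125, adjusted p = 0.737). DDIT3 was 0.37 higher in si2 than in si1, just short of the threshold (adjusted p = 0.0536) and past it without NC replicate 1 or 2 (adjusted p = 0.0333 and 0.0335). ATF5, a relative of ATF4, averaged 8.46 ± 0.451 FPKM in si1, 8.03 ± 0.544 in si2 and 10.6 ± 1.7 in NC (SD, n = 2; adjusted p = 0.121 in si1 and 0.0567 in si2). NUPR1, a small stress-induced nuclear protein, stayed between 1.28 and 1.94 FPKM in all libraries. In all, 7 of the 10 stress factors fell and 0 rose in si1, and 3 fell and 2 rose in si2. Over all genes tested, 12.9% fell and 9.47% rose in si1, and 15.4% and 13.6% in si2. Between the knockdown groups, 6 were higher in si2 than in si1 and 0 lower, where 19.9% and 18.6% of all genes were.

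Of the one-carbon enzymes, SHMT2 and MTHFD2 of the mitochondrial arm had the largest falls in si1 among the 10 enzymes tested. SHMT2 (chr12:57229327-57234935), which splits serine into glycine and a one-carbon unit, had 23.0 and 22.8 FPKM in si1, 44.7 and 46.3 in si2, against 49.8 and 53.5 in NC. Its fall in si1 was −1.14 (SE 0.0636, adjusted p = 0.000131), and its value in si2 was −0.18 (adjusted p = 0.0762). MTHFD2 (chr2:74198562-74217565), the next enzyme of that arm, had 31.2 and 33.9 FPKM in si1, 64.1 and 65.1 in si2, against 64.6 and 61.6 in NC. MTHFD2 fell in si1 (−0.94, SE 0.0647, adjusted p = 0.000262) and in si2 overlapped NC (0.03, adjusted p = 0.737). Both enzymes were thus higher in si2 than in si1, SHMT2 by 0.96 (adjusted p = 0.00011) and MTHFD2 by 0.97 (adjusted p = 0.000111). MTHFD1L, which returns the unit as formate, did not pass in either group, at 19.6 ± 0.697 FPKM in si1, 20.0 ± 1.08 in si2 and 21.7 ± 0.304 in NC (SD, n = 2).

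The 3 enzymes that make serine from a glycolytic intermediate fell in si1. PSAT1 (chr9:78297143-78330093), the aminotransferase in the middle, had 41.8 and 47.1 FPKM in si1, 95.2 and 92.5 in si2, against 69.5 and 68.8 in NC. PSAT1 fell in si1 (−0.63, SE 0.0695, adjusted p = 0.00136) and rose in si2 (0.44, SE 0.0695, adjusted p = 0.00499), and the difference of si2 from si1 was 1.06 (adjusted p = 0.000106). PHGDH, the first enzyme, averaged 26.0 ± 1.67 FPKM in si1, 29.4 ± 0.0729 in si2 and 31.0 ± 0.0757 in NC (SD, n = 2), and PSPH, the last, 19.8 ± 0.916, 26.0 ± 4.23 and 28.0 ± 1.32. Their falls in si1 were −0.25 (adjusted p = 0.0391) for PHGDH and −0.48 (adjusted p = 0.0218) for PSPH. The PHGDH call was lost without NC replicate 1, NC replicate 2, si1 replicate 1, si2 replicate 1 or si2 replicate 2 (adjusted p = 0.17, 0.167, 0.0757, 0.0753 and 0.0756). The PSPH call was lost without NC replicate 1, NC replicate 2, si1 replicate 1 or si1 replicate 2 (adjusted p = 0.0835, 0.12, 0.0837 and 0.0566).

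Of the proline enzymes, PYCR1 (chr17:81932384-81942412), the reductase of the last step, had 37.1 and 33.0 FPKM in si1, 14.8 and 16.1 in si2, against 41.7 and 45.2 in NC. PYCR1 fell in si2 (−1.43, SE 0.0839, adjusted p = 0.000165), the lowest value of the 38 genes in that comparison, and was lower in si2 than in si1 (−1.13, adjusted p = 0.000169). Its smaller fall in si1 (−0.31, adjusted p = 0.0407) was lost when any library other than si1 replicate 1 was left out (adjusted p = 0.0598 to 0.21), as it was with median-of-ratios scaling (0.0502). ALDH18A1, which catalyses the first steps from glutamate, averaged 22.1 ± 1.26 FPKM in si1, 17.6 ± 0.68 in si2 and 21.2 ± 0.59 in NC (SD, n = 2). It fell in si2 (−0.26, adjusted p = 0.0351), a call lost without NC replicate 1, NC replicate 2, si2 replicate 1 or si2 replicate 2 (adjusted p = 0.111, 0.181, 0.18 and 0.0869).

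ASNS (chr7:97852118-97872542), asparagine synthetase and a standard marker of ATF4 activity, had 0.384 and 0.411 FPKM in si1, 0.554 and 0.698 in si2, against 0.524 and 0.613 in NC. The si1 libraries lay below both others, but these levels rest on 28 to 48 reads per library and were not tested. ASNS also overlaps AC005326.1, a processed pseudogene on the other strand that averaged 2 FPKM. The sources used here do not say whether counting used strand, so the level of ASNS is uncertain. ALDH1L2, a mitochondrial folate dehydrogenase, was at 0.183 FPKM or less in each library, with 2 to 26 reads. CTH, the enzyme that makes cysteine from cystathionine, averaged 6.23 ± 0.117 FPKM in si1, 8.01 ± 0.206 in si2 and 6.79 ± 0.461 in NC (SD, n = 2), and was higher in si2 than in si1 (0.32, adjusted p = 0.0181), a call lost without si1 replicate 2, si2 replicate 1 or si2 replicate 2 (adjusted p = 0.0525, 0.0975 and 0.0619). CBS, which makes cystathionine, had 8.40 and 3.67 FPKM in si1, 3.04 and 5.80 in si2, against 6.28 and 10.3 in NC. Reads may be split with CBSL, a near-identical copy at 4.69 FPKM in NC replicate 1 and at most 0.28 FPKM elsewhere, so the level of CBS is uncertain. CBS alone overlapped between si1 and NC. It passed the threshold against NC in neither group (si1 −0.45, SE 0.382, adjusted p = 0.445, and si2 −0.79, SE 0.382, adjusted p = 0.167). The sum of both copies was 8.55 and 3.95 FPKM in si1, 3.14 and 5.92 in si2, against 11.0 and 10.5 in NC, so that both NC libraries lay above all others. The sum was not tested. Of the 12 enzymes, 10 were tested. In si1 6 fell and 0 rose, where 12.9% and 9.47% of all genes did. In si2 2 fell and 1 rose, against 15.4% and 13.6% of all genes.

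Among the synthetases, 9 of 18 fell and 2 rose in si1, or 50% and 11.1%, where 12.9% and 9.47% of all genes did. In si2 7 fell and 2 rose, or 38.9% and 11.1%, where 15.4% and 13.6% of all genes did. GARS (glycine; chr7:30594681-30634033) had 105 and 118 FPKM in si1, 163 and 163 in si2, against 170.5 and 170.0 in NC. TARS (threonine; chr5:33440696-33469539) had 65.7 and 74.6 FPKM in si1, 105 and 102 in si2, against 108 and 104 in NC. WARS (tryptophan; chr14:100333788-100376805) had 25.7 and 24.4 FPKM in si1, 34.6 and 34.6 in si2, against 38.3 and 41.2 in NC. In each of these the si1 libraries lay below all others. The log2 fold changes in si1 were −0.61 for GARS (SE 0.0658, adjusted p = 0.00127), −0.59 for TARS (SE 0.0719, adjusted p = 0.00192) and −0.65 for WARS (SE 0.0662, adjusted p = 0.00102). In si2 none of the 3 passed (adjusted p = 0.515 for GARS, 0.809 for TARS and 0.0675 for WARS), and all 3 were higher in si2 than in si1, by 0.54, 0.56 and 0.45.

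MARS and YARS were low in both knockdown groups. MARS (methionine; chr12:57475445-57517569) had 35.9 and 33.4 FPKM in si1, 32.3 and 31.6 in si2, against 49.5 and 52.8 in NC, and fell in si1 (−0.55, SE 0.0672, adjusted p = 0.00195) and in si2 (−0.66, SE 0.0672, adjusted p = 0.000932). YARS (tyrosine; chr1:32775237-32818153) had 34.3 and 33.2 FPKM in si1, 16.4 and 16.7 in si2, against 46.1 and 44.0 in NC. YARS fell further in si2 (−1.39, SE 0.062, adjusted p = 6.86e-05) than in si1 (−0.41, SE 0.062, adjusted p = 0.00474), with a difference of −0.99 between the groups (adjusted p = 9.32e-05). The si1 call of YARS was lost without NC replicate 1 (−0.37, adjusted p = 0.054). The end of MARS overlaps that of DDIT3 on the other strand, and YARS overlaps S100PBP (4.97 FPKM). The sources used here do not say whether counting used strand, so reads from such overlaps cannot be told apart. The same holds for HARS with HARS2 (12.3 FPKM) and WDR55, ATF5 with NUP62 (18.7 FPKM) and DDIT3 with MBD6 (9.11 FPKM).

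KARS and EPRS moved in opposite directions in si1 and si2. KARS (lysine; chr16:75627474-75648643) had 62.8 and 69.1 FPKM in si1, 38.6 and 38.4 in si2, against 51.2 and 52.8 in NC. It rose in si1 (0.34, SE 0.0658, adjusted p = 0.0126) and fell in si2 (−0.42, SE 0.0658, adjusted p = 0.00448). KARS overlaps TERF2IP (16.8 FPKM) on the other strand. EPRS (glutamate and proline; chr1:219968601-220046658) had 63.4 and 67.4 FPKM in si1, 93.2 and 92.7 in si2, against 78.8 and 76.4 in NC. EPRS fell in si1 (−0.24, SE 0.0574, adjusted p = 0.0238) and rose in si2 (0.26, SE 0.0574, adjusted p = 0.0168). The KARS rise in si1 lost its call without NC replicate 1 or 2 (adjusted p = 0.0959 and 0.0651). The EPRS fall in si1 lost its call without either NC or either si2 library (adjusted p = 0.0556 to 0.156), and its rise in si2 without any NC or si2 library (0.0764 to 0.118).

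The remaining synthetases changed by less than 0.5 log2 units against NC. IARS, for isoleucine, averaged 51.4 ± 1.25 FPKM in si1, 67.9 ± 1.24 in si2 and 66.8 ± 2.14 in NC (SD, n = 2), a fall in si1 (−0.37, adjusted p = 0.00503) that lost its call without NC replicate 1 (−0.34, adjusted p = 0.0569). AARS, for alanine, averaged 144 ± 3.92 FPKM in si1, 131 ± 5.97 in si2 and 167 ± 3.55 in NC. Its fall in si2 (−0.34, adjusted p = 0.00549) lost its call without NC replicate 2 (adjusted p = 0.0544) or si2 replicate 1 (adjusted p = 0.0521), and its fall in si1 (−0.21, adjusted p = 0.04) was lost when any library other than si1 replicate 1 was left out (adjusted p = 0.0676 to 0.204). SARS, for serine, averaged 66.8 ± 3.76 FPKM in si1, 56.4 ± 0.833 in si2 and 75.8 ± 0.015 in NC, and fell in si2 (−0.42, adjusted p = 0.0034).

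CARS, for cysteine, fell in si1 (−0.32, adjusted p = 0.0236), and HARS, for histidine, rose there (0.30, adjusted p = 0.0335). Without NC replicate 1, NC replicate 2, si1 replicate 1 or si1 replicate 2 the CARS call was lost (adjusted p = 0.159, 0.0613, 0.056 and 0.0593), and every library but si1 replicate 1 ended the HARS call when left out (0.055 to 0.162). QARS (−0.25) and VARS (−0.28) fell in si2 and DARS rose there (0.26). Each of these 3 calls was lost when either NC or either si2 library was left out, with adjusted p = 0.126 to 0.151 for QARS, 0.0986 to 0.157 for VARS and 0.0836 to 0.225 for DARS. NARS, with 61.4 ± 5.59 FPKM in si1, 83.7 ± 3.94 in si2 and 73.0 ± 0.747 in NC (SD, n = 2), passed against NC in neither group (adjusted p = 0.0567 and 0.097). It was higher in si2 than in si1 (0.44, adjusted p = 0.00412), as was LARS (0.22, adjusted p = 0.0328), for leucine, whose call was lost without any library other than si1 replicate 2 (0.0698 to 0.134). VARS, for valine, was lower in si2 than in si1 (−0.44, adjusted p = 0.00374), as were SARS (−0.24, adjusted p = 0.0196) and QARS (−0.25, adjusted p = 0.0273). Without si2 replicate 1 or si2 replicate 2 the call of SARS was lost (adjusted p = 0.112 and 0.0767), and that of QARS was lost without any library other than si1 replicate 1 (0.0589 to 0.122). In all, 7 synthetases were higher in si2 than in si1 and 5 lower, or 38.9% and 27.8%, where 19.9% and 18.6% of all genes were. The median log2 fold change of the synthetases was −0.017. RARS, for arginine, stayed at 31.0 to 35.9 FPKM.

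The 8 synthetases held in the cytosolic multisynthetase complex (DARS, EPRS, IARS, KARS, LARS, MARS, QARS and RARS), a split chosen after the values were seen, had 3 falls and 1 rise in si1 and 3 falls and 2 rises in si2. The 10 others had 6 falls and 1 rise in si1 and 4 falls and 0 rises in si2. Shares over all genes were 12.9% fallen and 9.47% risen in si1, and 15.4% and 13.6% in si2. Summed over the 18 synthetases, expression was 857 and 903 FPKM in si1, 964 and 961 in si2, and 1069.7 and 1069 in NC. The sums of the 12 enzymes were 234 and 236 FPKM in si1, 325 and 326 in si2, and 340.4 and 349.8 in NC. Those of the 10 stress factors were 209.6 and 216.8, 324.7 and 330.8, and 345.9 and 340.2. Each sum was lowest in si1 in both libraries. The stress factor sums rest mostly on ATF4 and STC2, whose levels are given above.

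The promoter element was then set beside the expression values. Of the 9 tested genes of the set with a match, 7 fell and 0 rose in si1, and 3 fell and 0 rose in si2. Of the 21 tested genes of the set with a window and no match, 11 fell and 2 rose in si1, and 6 fell and 4 rose in si2. Outside the set, 230 tested genes had a match. In si1 27.0% of these fell and 8.26% rose, where of the 8890 other genes with a window and no match 12.9% fell and 10% rose. In si2 19.1% of the carriers fell and 13.5% rose, against 15.8% and 14.2% of the genes with no match. These shares are descriptions without a test.

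**Figure D3:**
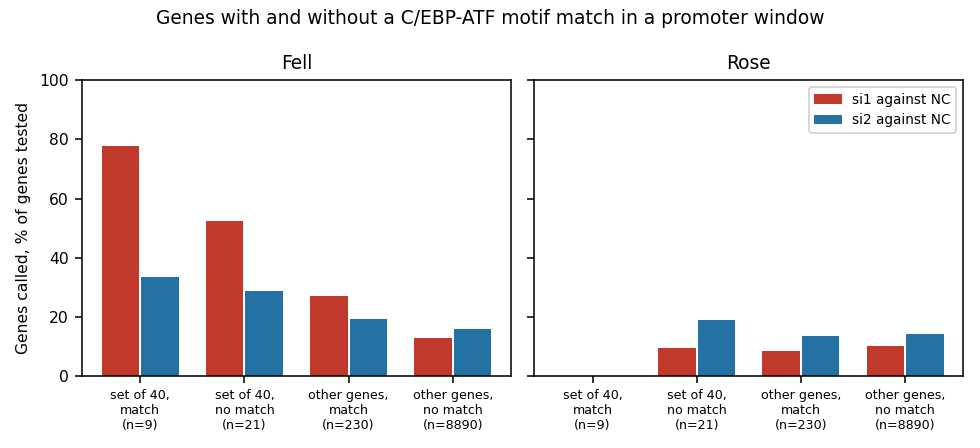
Percent of tested genes called as fallen (left) or risen (right) in si1 and in si2 against NC, for genes of the set and other genes, with and without a match to the C/EBP-ATF motif in a promoter window. For fallen genes in si1 the bars stand at 77.8% of the 9 genes of the set with a match, 52.4% of the 21 without one, 27.0% of the 230 other genes with a match and 12.9% of the 8890 without one.

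Genes next to this programme were taken from lists. Beside their counts, 12.9% of all genes tested fell and 9.47% rose in si1, and 15.4% and 13.6% in si2. Of 11 amino acid transporters tested, 8 fell and 1 rose in si1, and 3 fell and 3 rose in si2. SLC7A1, an arginine and lysine carrier, had 15.2 and 12.7 FPKM in si1, 32.1 and 33.2 in si2, against 28.1 and 28.4 in NC (si1 −0.97, adjusted p = 0.000682, and si2 0.20, adjusted p = 0.136). SLC7A5, which carries large neutral amino acids, fell in si1 (−0.88, adjusted p = 0.000449) and in si2 (−0.35, adjusted p = 0.0125). SLC6A9, a glycine transporter, fell in si1 (−0.66, adjusted p = 0.00179) and in si2 (−0.80, adjusted p = 0.000844). Of the 15 tested partners and other targets of ATF4, 5 fell and 3 rose in si1, and 3 fell and 3 rose in si2. EIF4EBP1, a brake on translation initiation, had 28.2 and 27.5 FPKM in si1, 50.3 and 51.1 in si2, against 63.2 and 60.1 in NC. It fell in si1 (−1.12, adjusted p = 0.000119) and in si2 (−0.28, adjusted p = 0.0139). GDF15, a stress cytokine, fell in si1 (−0.98, adjusted p = 0.00044), and DDIT4, an inhibitor of mTORC1, rose in si1 (0.78, adjusted p = 0.00161) and in si2 (0.72, adjusted p = 0.00196).

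Of 16 mitochondrial synthetases tested, 1 fell and 1 rose in si1, and 0 fell and 1 rose in si2. Of all genes, 12.9% fell and 9.47% rose in si1, and 15.4% and 13.6% in si2. The median log2 fold changes of the mitochondrial synthetases were 0.078 in si1 and −0.12 in si2. MARS2 fell in si1 (−0.54, adjusted p = 0.0226) and IARS2 rose there (0.25, adjusted p = 0.0309). Of the 5 other subunits and scaffold proteins of the cytosolic enzymes, 0 fell and 0 rose in si1, with a median of −0.029. In si2 1 fell and 2 rose. EEF1E1 (0.59, adjusted p = 0.027) and FARSB (0.25, adjusted p = 0.0353) rose in si2, and FARSA fell there (−0.40, adjusted p = 0.0137). Of the 11 tested genes of the folate and glycine cycle outside the set, 0 fell and 2 rose in si1, and 0 fell and 2 rose in si2. FPGS, which adds glutamates to folates, rose in si1 (0.51, adjusted p = 0.00414). Of the 12 eIF2 kinases, phosphatase subunits and exchange factor subunits, 3 fell and 1 rose in si1, and 1 fell and 0 rose in si2. The fall in si2, 8.33% of the list, was under the share of all genes. The kinase genes EIF2AK3 (−0.38, adjusted p = 0.025) and EIF2AK2 (−0.35, adjusted p = 0.0105) fell in si1, and EIF2B4, a subunit of the exchange factor, rose there (0.34, adjusted p = 0.0217).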

How the data were processed

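The deposited values are FPKM, which the authors computed for each gene and library. The submitters' processing notes name the build hg38. No aligner, counter or annotation is given in the sources used here, and gene coordinates equal those of GENCODE 29 for 58735 of 58735 genes. In each library, 100% of the products of FPKM and gene length came out as multiples of a single step (tolerance 0.001), and dividing by it recovered reads. The test scale was log2(FPKM + 1). On it, fold changes of low genes come out too small. All 6 libraries entered one limma fit (version 3.58.1, R version 4.3.3) with a coefficient for each group, 3 residual degrees of freedom and moderated variances that follow a trend. It held 12319 genes, those whose mean FPKM reached 1. Two-sided p-values were adjusted by Benjamini-Hochberg over all genes of a contrast. Errors are the SD of 2 libraries or limma's SE. The fit was run on simulated data in which every gene and group had the same setting of spread beyond counting noise. Its error rates in these libraries were not measured.

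The 40 genes and the lists were chosen with earlier results of these data known. Of the 40 genes, each library is given for those called with a size of at least 0.5 in any of the 3 contrasts and for ATF4, DDIT3 and ASNS, and CBS was added after its values were seen. From each neighbouring list at most 3 genes are named, those with the largest sizes among called genes, and a few that qualify are left out of the text. Libraries of a group differed by more than counting noise, and most in si1. The chi-square of the reads per degree of freedom was 10.53 in si1, 3.678 in si2 and 3.758 in NC. The fit shares a single spread per gene over the groups.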

Additional observations from a re-analysis of the deposited data

Results flagged for a closer look

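For 5 genes si1 and si2 passed the threshold against NC in opposite directions. The difference of si2 from si1 is then larger than either change with the same SE, so its passing adds no separate support. It was 1.06 log2 units for PSAT1 (adjusted p = 0.000106), 0.95 for VLDLR (adjusted p = 0.000189), 0.91 for TRIB3 (adjusted p = 0.000187), 0.50 for EPRS (adjusted p = 0.000831) and −0.76 for KARS (adjusted p = 0.000284), by limma. KARS alone of these was lower in si2. As given above, leaving out single libraries ended both calls of EPRS against NC, the si1 call of KARS and the si2 call of VLDLR. Groups of 2 libraries are too small to look for a library that stands apart.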

How the results depend on the processing

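Of 66 calls for single genes, 38 were lost under none of the 14 alternatives. The number of genes that rose in si1 was 1 without a filter on low values and 1 when only the 2 groups compared were fitted. Of all genes in those fits, 1.88% and 7.98% rose. The number that rose in si2 was 3 without the filter and 3 without a variance trend, where 2.67% and 12.3% of all genes rose. When 1 library at a time was left out, the numbers that fell and rose were 12 to 19 and 0 to 2 in si1, 6 to 13 and 2 to 7 in si2, and 4 to 7 and 15 to 17 in si2 against si1. Over all genes the same fits gave 5.52% to 11.7% fallen and 3.52% to 8.09% risen in si1, 6.67% to 17.1% and 5.42% to 15.7% in si2, and 12% to 16.8% and 12.2% to 18.6% in si2 against si1. DDIT3 in si2 against NC was −0.10 without NC replicate 1 and at most 0.23 without any one library. The cause was not tested, except that leaving out a library leaves fewer samples.

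With the replicate number as a block, 18 genes fell and 2 rose in si1, 10 fell and 4 rose in si2, and in si2 against si1 17 were higher and 6 lower. Over all genes that fit gave 11.0% fallen and 7.92% risen in si1, and 13.6% and 11.7% in si2. In si2 against si1 it gave 18.0% higher and 17.1% lower. The labels do not say that equal numbers mark a shared culture, and same-numbered deviations correlated at −0.058 to 0.050 between groups. voom on the recovered reads, added after the data were seen, gave 23 falls and 2 rises in si1 and 17 and 7 in si2. With voom, 14.3% of all genes fell and 11.3% rose in si1, and 16.1% and 14.6% in si2. The planned count models were not run, since the deposited unit is FPKM. Depth limits ASNS and ALDH1L2, with at most 48 reads per library.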

Other observations

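A list beside the ATF4 genes held endoplasmic reticulum chaperones of the unfolded protein response and its regulators XBP1, ATF6 and ERN1. Of 9 chaperones tested, 6 fell and 0 rose in si1, and 3 fell and 0 rose in si2, by limma. Of all genes, 12.9% fell and 9.47% rose in si1, and 15.4% and 13.6% in si2. The 3 regulators fell in si1. The median log2 fold change over all 12 genes was −0.43 in si1 and −0.024 in si2. XBP1, the transcription factor of one arm, had 24.3 and 26.6 FPKM in si1, 53.4 and 54.0 in si2, against 53.2 and 53.9 in NC (si1 −1.05, adjusted p = 0.000167). HYOU1, a chaperone of the endoplasmic reticulum, had 17.7 and 15.4 FPKM in si1, 8.57 and 9.07 in si2, against 23.8 and 23.0 in NC, and fell in si2 (−1.32, adjusted p = 0.000185) and in si1 (−0.48, adjusted p = 0.0079). SDF2L1 fell in si2 (−0.65, adjusted p = 0.0244) and in si1 (−0.60, adjusted p = 0.0393).

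Of 13 tested genes of other amino acid metabolism, 4 fell and 3 rose in si1, where 12.9% and 9.47% of all genes did. In si2 3 fell and 4 rose, where 15.4% and 13.6% of all genes did. GCLC, the catalytic subunit of glutathione synthesis, had 52.6 and 58.8 FPKM in si1, 42.5 and 42.9 in si2, against 31.8 and 30.8 in NC, and rose in both (0.81, adjusted p = 0.000557, and 0.43, adjusted p = 0.0052). GLUL, glutamine synthetase, rose in si1 (0.62, adjusted p = 0.00141), and GOT1, the cytosolic aspartate aminotransferase, fell there (−0.63, adjusted p = 0.00151).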
